A study of Mus musculus with 2 samples.

Results

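The genes that bone-forming osteoblasts and tooth-forming cells use to lay down and mineralize their matrix were examined for nearby binding sites of DLX2, a transcription factor of the homeodomain class that is active in the developing jaw. A list of 35 such genes was taken, together with the regulators and signals of the same process. The mouse annotation held 34 of them, among 21757 protein-coding genes on chromosomes 1 to 19, X and Y, and *Satb2os* was not found in it. For each gene the peaks inside its extent or within 100 kb of either end were counted in each replicate and in both. The list was drawn up with earlier results of these data known, but the rule itself uses no peak value.

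Occupancy had been profiled by CUT&Tag, in which an antibody directs a transposase to cut and tag the DNA around its target, and the fragments made in this way mark where the protein was bound. Both libraries came from cells of the maxillary process, the part of the embryonic face that becomes most of the upper jaw, of wildtype C57BL/6 embryos at E12.5, with an antibody against DLX2. Both belong to 1 group, and they are numbered here as replicates 1 and 2 by their order in the sample list. No input, control antibody or other genotype was used here, and nothing states that the replicates came from separate litters. The data are peak positions without expression values, so which cells of the process carried a site, and whether any of these genes was expressed, was not measured.

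Osteoblasts first secrete an organic matrix of collagen and acidic proteins and then mineralize it, a step that needs phosphate released by enzymes on the cell surface and the removal of pyrophosphate, which blocks crystal growth. Dentine is made in a similar way by odontoblasts, which, like most of the bone of the face, come from the cranial neural crest, while enamel is made by an epithelium with matrix proteins of its own. Sp7 and RUNX2 drive osteoblast differentiation, and hormones and local signals set how much bone is made or resorbed. Homeodomain factors commonly bind DNA at a TAATTA or TAATTG core, and RUNX factors at TGTGGT.

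The promoter sequences below, from RefSeq for build GRCm38.p6, which has the coordinates of mm10, are given because a peak met them or because they hold the motif letters searched. Each runs 5′ to 3′ along the strand of its gene from 250 bases before a listed start site to 30 bases after it. Capitals mark the homeodomain and RUNX cores just named, on either strand. On the opposite strand the second homeodomain core reads CAATTA, while the RUNX core reads ACCACA. *Ibsp* and *Sost* were the members whose listed promoter met a peak, *Dmp1* is shown at the listed start site nearest to its shared region, and *Bglap* had letters of both kinds but no peak. The promoters of *Mepe* and *Mmp14*, not printed here, also had letters of both kinds and no peak.
*Ibsp*, chr5:104299037-104299316, plus strand: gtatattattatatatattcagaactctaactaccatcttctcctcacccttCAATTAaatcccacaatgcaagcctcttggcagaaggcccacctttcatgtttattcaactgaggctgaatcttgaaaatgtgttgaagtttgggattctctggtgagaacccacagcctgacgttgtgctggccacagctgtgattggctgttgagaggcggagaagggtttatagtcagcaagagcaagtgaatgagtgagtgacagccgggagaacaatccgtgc
*Sost*, chr11:101966986-101967265, minus strand: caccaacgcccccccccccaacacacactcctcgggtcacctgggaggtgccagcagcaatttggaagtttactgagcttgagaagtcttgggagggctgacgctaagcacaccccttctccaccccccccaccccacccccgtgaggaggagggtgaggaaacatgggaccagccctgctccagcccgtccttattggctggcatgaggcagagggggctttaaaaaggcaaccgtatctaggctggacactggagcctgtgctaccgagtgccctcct
*Dmp1*, chr5:104202367-104202646, plus strand: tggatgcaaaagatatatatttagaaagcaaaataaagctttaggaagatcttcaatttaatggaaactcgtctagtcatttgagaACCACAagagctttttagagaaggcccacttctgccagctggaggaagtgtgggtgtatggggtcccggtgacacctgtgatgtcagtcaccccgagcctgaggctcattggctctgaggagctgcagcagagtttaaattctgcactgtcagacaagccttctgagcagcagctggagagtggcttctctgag
*Bglap*, chr3:88384437-88384716, minus strand: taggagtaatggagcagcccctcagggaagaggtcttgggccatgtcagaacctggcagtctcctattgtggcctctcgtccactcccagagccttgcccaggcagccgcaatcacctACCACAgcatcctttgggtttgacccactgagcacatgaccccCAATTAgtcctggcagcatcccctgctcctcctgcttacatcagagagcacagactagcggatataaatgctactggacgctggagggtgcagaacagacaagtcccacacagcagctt

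In the *Ibsp* stretch the TAATTG letters began 198 bases before the start site, outside the replicate 2 peak at chr5:104299256-104299383, which lay over the start site itself. The *Sost* stretch held none of the 3 motifs and met a replicate 2 peak at chr11:101966865-101967082. In *Dmp1* the TGTGGT letters began 164 bases before the start site, and in *Bglap* they began 132 bases before it, with TAATTG at 89 bases. A motif match is a description of the letters and not a measured site.

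Over all 34 genes, 26 had at least 1 shared region within 100 kb, that is, a stretch covered by a peak of each replicate. This is 76.5% of the genes, beside 60.3% of all coding genes and 63.2% of autosomal coding genes; no member lies on X or Y. Coding genes with 80% to 125% of the length of each member held one in 59.7% of cases on average. The members' windows partly coincide, because neighbours in a cluster share regions: the 34 genes fall into 27 separate loci, of which 21 held a shared region. The share of like-sized windows elsewhere that held a shared region was not counted, so this count of loci has no background. Without the *Dspp* to *Spp1* cluster, whose 5 genes share regions, 21 of 29 members had one. The share with a shared region was 41.2% beside 28.6% of coding genes where every peak had a fold of at least 5, and 17.6% beside 14.9% where every peak had a −log10 q of at least 5. Apart from the 63.2%, the shares of coding genes here and below include genes on X and Y. There is 1 group and no control, so the shares are descriptions and were not tested.

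By the share of genes with a peak, the members stood closer to the other genes in single replicates. Most coding genes had a peak there, so these shares had little room to differ. Counts per Mb, which have no such upper limit, are given below. A replicate 1 peak lay within 100 kb of 29 members, or 85.3%, beside 83.1% of coding genes. A replicate 2 peak lay within 100 kb of 32 members, or 94.1%, beside 91.7% of coding genes. The median member had 4 peaks by replicate 1 and 8 by replicate 2, with 1.5 shared regions, and the median coding gene had 3, 8 and 1. Replicate 2 had the longer list, with 62093 peaks against 28061 in all, and the same held around 29 of the 34 members. Its lowest background level, a measure of coverage recovered from the deposited values, was 2.84 times that of replicate 1, and the part of library depth in the peaks found in replicate 2 only was not tested.

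**Figure D1:**
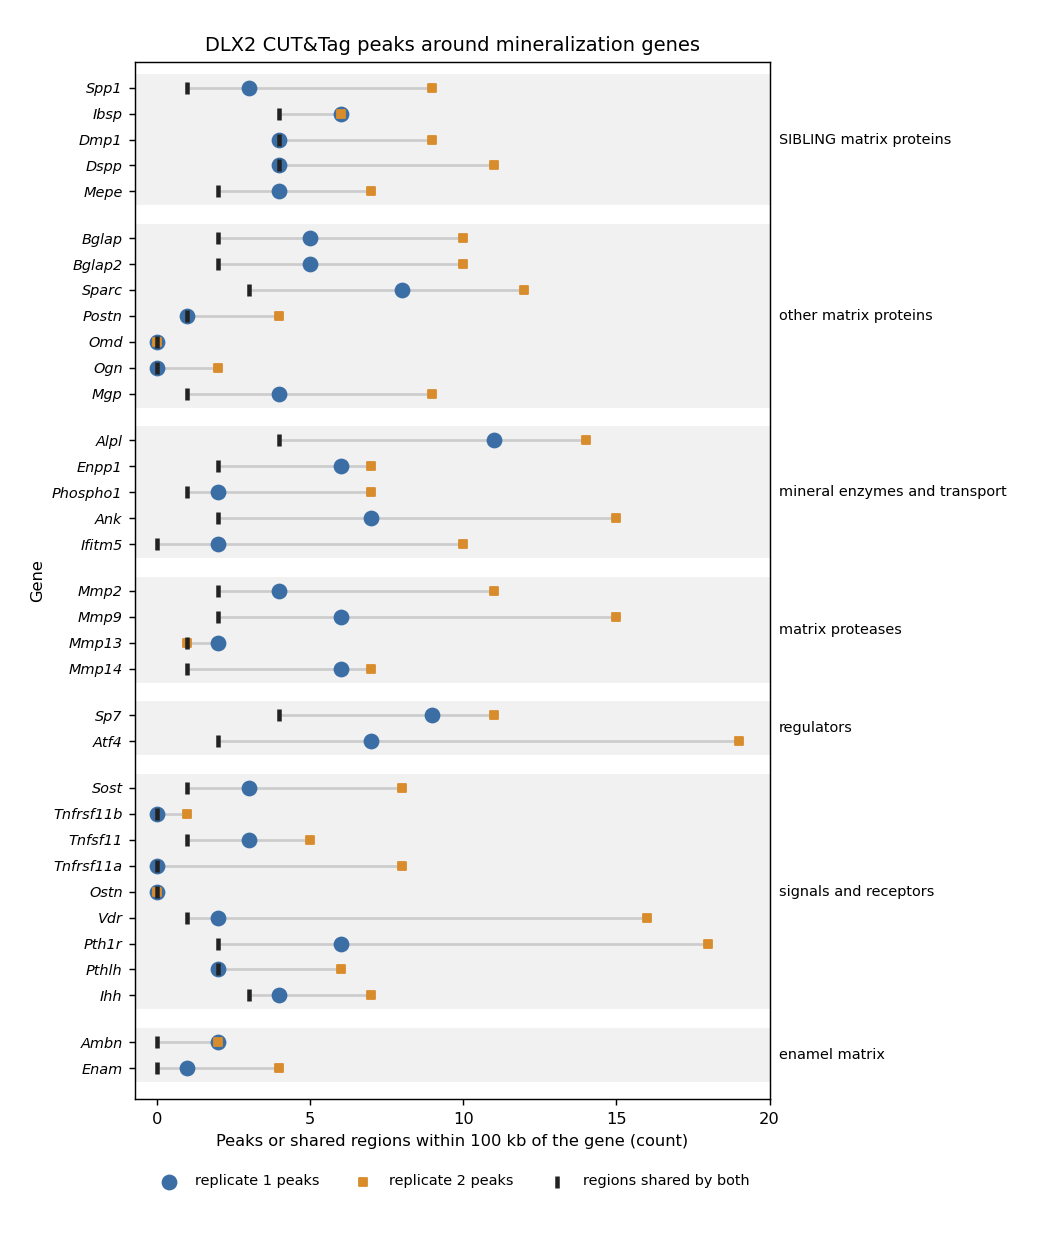
Number of DLX2 CUT&Tag peaks (x axis, count) within 100 kb of each of the 34 genes (y axis, grouped by role), with blue circles for replicate 1, orange squares for replicate 2 and black ticks for regions shared by both. Shared regions run from 0 at 8 genes to 4 at *Ibsp*, *Dmp1*, *Dspp*, *Alpl* and *Sp7*, and replicate 2 exceeds replicate 1 at 29 genes.

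The plot of counts by gene shows how uneven the genes were: 8 had no shared region, 9 had 1, 10 had 2, *Sparc* and *Ihh* had 3, and 5 had 4. Close to the genes the shared regions were few. A shared region lay inside *Dmp1*, *Mepe*, *Alpl*, *Mmp2* and *Vdr*, which is 14.7% of the members beside 14.6% of coding genes. Replicate 1 peaks lay inside 11 members (32.4%, beside 30.6% of coding genes), and replicate 2 peaks inside 16 members (47.1%, beside 48.9%). Inside the genes, then, the members were close to all coding genes. These shares were not matched for length, and the median member was shorter, at 12900 bases beside 17200 for coding genes.

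Near start sites the counts were small. A shared region lay within 2 kb of the listed start site of *Dmp1*, or of a gene end of *Mmp2* and *Sp7*, which is 8.82% of the members beside 2.32% of coding genes. Start sites are not listed for 8 members, *Mmp2* and *Sp7* among them, and there either end of the gene was used, as it was for all coding genes without one. Among the 26 members with a listed start site *Dmp1* was the only one, or 3.85%, beside 1.81% of the 17476 coding genes with a listed start site. Most of the shared count therefore rests on gene ends that may not be starts. On the first basis, replicate 1 peaks lay that near to *Dmp1*, *Mmp2*, *Mgp*, *Sp7* and *Pth1r*, or 14.7% of the members beside 7.26% of coding genes. Replicate 2 peaks lay that near to 10 members (29.4%, beside 18.3%), namely *Ibsp*, *Dmp1*, *Sparc*, *Alpl*, *Mmp2*, *Mmp9*, *Sp7*, *Atf4*, *Sost* and *Pthlh*. With listed start sites only, replicate 1 peaks lay that near to 2 of 26 members, *Dmp1* and *Pth1r*. This is 7.69%, close to the 6.15% of coding genes. On that basis replicate 2 peaks lay near 7 of 26, or 26.9%, beside 15.7%. The shared count rests on 3 genes, and it was 1 with a fold of at least 5 demanded of every peak and 0 with a −log10 q of at least 5.

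The first group by role was the SIBLING family, acidic phosphoproteins of bone and dentine matrix that are encoded side by side on chromosome 5. The locus, 470.351 kb with its flanks, held 9 peaks of replicate 1, of which 7 met a peak of replicate 2 (77.8%, 95% Wilson interval 45.3 to 93.7). Over all chromosomes 38.8% of replicate 1 peaks did so (38.2 to 39.4). It held 22 peaks of replicate 2, of which 6 were met (27.3%, 13.2 to 48.2), beside 17.1% overall (16.8 to 17.4). The intervals cover counting error only and take the peaks as independent, though 2 of the 7, at *Mepe*, met the same replicate 2 peak. The locus is one of 27, picked out here after its values were seen.

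**Figure D2:**
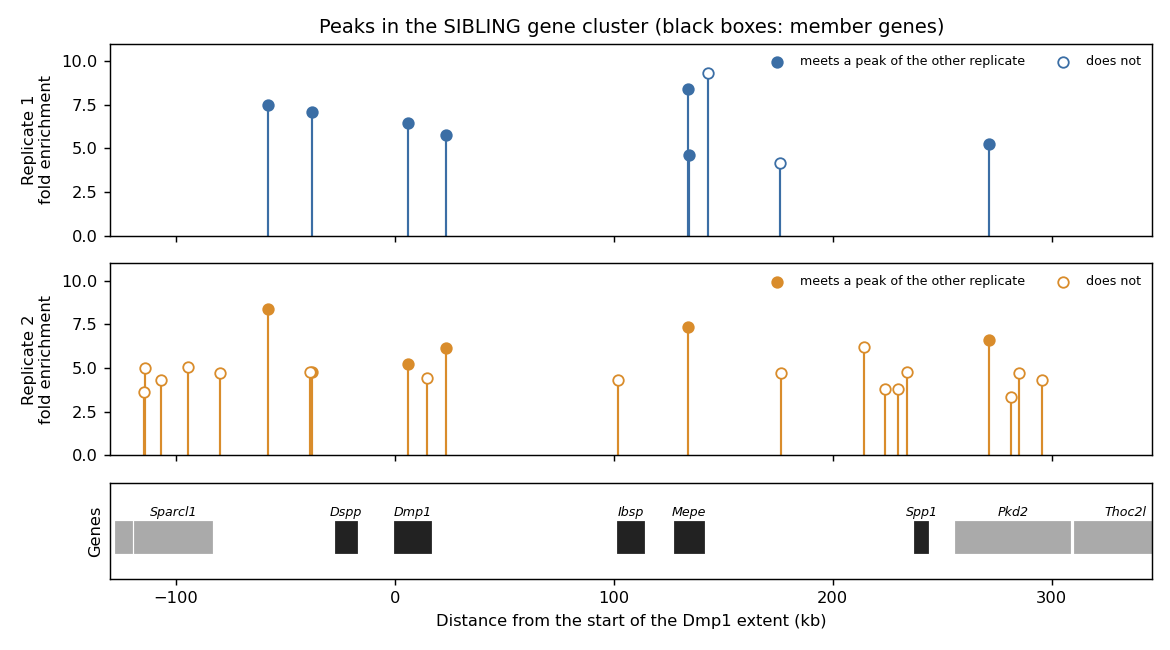
Peaks in the SIBLING gene cluster, drawn at their distance from the start of the *Dmp1* extent (x axis, kb), with fold enrichment over local background on the y axis for replicate 1 (top) and replicate 2 (middle), and genes as boxes (bottom, members black). Filled points meet a peak of the other replicate: 7 of 9 in replicate 1 and 6 of 22 in replicate 2.

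*Dmp1*, dentin matrix acidic phosphoprotein, carried a shared region inside the gene at chr5:104203391-104203605. Its fold enrichment was 6.49 in replicate 1 and 5.24 in replicate 2, with a −log10 q of 5.17 and 4.12 and with 8 and 10 fragments at the summits. The summits were 4 bp apart, and the middle of the region lay 0.881 kb past the second listed start site, whose promoter is printed above. A further shared region lay 6.63 kb beyond the far end of the gene at chr5:104220730-104220923, with folds of 5.77 and 6.13. Replicate 1 listed 4 peaks and replicate 2 listed 9 in the whole *Dmp1* window.

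*Dspp*, which encodes the main non-collagenous proteins of dentine, had no peak inside it in either replicate. Its flank on the side away from *Dmp1* held 2 shared regions. The stronger one, at chr5:104139261-104139795, lay 30.9 kb from *Dspp* and had folds of 7.47 and 8.37, −log10 q of 6.93 and 12.4, and 11 and 21 fragments. The nearer one, at chr5:104159377-104159714 and 11 kb away, had folds of 7.08 and 4.76 and 9 fragments in each replicate, with summits 8 bp apart. *Sparcl1*, which is no member, is nearer to the first of them, at 25.2 kb.

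*Mepe*, an inhibitor of mineralization from the same family, held the shared region with the highest −log10 q of all at these genes. It lay inside the gene at chr5:104330992-104331630, 5.98 kb past the start site, with folds of 8.40 and 7.33, −log10 q of 14.0 and 19.6, and 26 and 41 fragments. The recovered local background there was high, at 2.21 and 4.73, beside medians of 0.525 and 1.43 over the peaks in the members' windows. Of all shared regions, 99.3% had a lower −log10 q when the weaker replicate of each is taken. A smaller replicate 1 peak beside it (fold 4.65, 14 fragments) met the same replicate 2 peak, so both shared regions of *Mepe* rest on 1 peak of replicate 2.

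*Ibsp*, bone sialoprotein, counted 4 shared regions, the regions inside *Dmp1* and *Mepe* among them, and none inside the gene itself. Its start site carried the replicate 2 peak described above, with a fold of 4.28, a −log10 q of 2.58 and 8 fragments, and no replicate 1 peak. Replicate 1 in turn listed a peak at chr5:104340612-104340711, beyond *Mepe*, with a fold of 9.32, a −log10 q of 10.2 and 13 fragments, which replicate 2 did not meet. *Spp1*, osteopontin, had 3 peaks in replicate 1 and 9 in replicate 2, with 1 shared region (chr5:104468610-104468847, folds 5.25 and 6.62) at 27.6 kb and inside its neighbour *Pkd2*.

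The other matrix genes were mixed. *Bglap* and *Bglap2*, both osteocalcin genes, share a window with 5 peaks of replicate 1, 10 of replicate 2 and 2 shared regions. The nearer region, at chr3:88442867-88443041, had folds of 5.33 and 6.61 and lay 58.4 kb upstream of *Bglap*, inside *Sema4a*. The other, at chr3:88470710-88470827, lay 86.2 kb away with folds of 4.02 and 4.52. No peak of either replicate lay inside either gene or within 2 kb of it.

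*Sparc*, osteonectin, had 8 and 12 peaks and 3 shared regions, all downstream. The farthest, at chr11:55346856-55347037, had folds of 7.38 and 4.06 at 47.1 kb from the gene. The other two had folds of 4.25 and 4.59 at 35.6 kb and of 4.66 and 3.78 at 27.1 kb, so only the first passed 5 in either replicate. *Postn*, periostin of the periosteum and periodontal ligament, had 1 shared region at 49.3 kb with folds of 3.60 and 4.76. *Mgp*, matrix Gla protein, which inhibits calcification, had 1 at 94.8 kb with folds of 5.77 and 6.19. *Omd* and *Ogn*, small leucine-rich proteoglycans that lie together, had no shared region: *Omd* had no peak in either replicate, and *Ogn* had 2 in replicate 2.

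Among the genes for mineral enzymes and transport, *Alpl* led. It encodes tissue-nonspecific alkaline phosphatase, which breaks down pyrophosphate, and had 11 peaks in replicate 1 and 14 in replicate 2, with 4 shared regions. The region inside the gene, at chr4:137752142-137752239, was weak, with folds of 4.04 and 3.63, −log10 q of 1.95 and 2.38, and 7 and 11 fragments, 14.3 kb past the start site. Upstream, a region at chr4:137857986-137858233 had folds of 6.48 and 4.66 but lay 61.6 kb away and nearer to *Ece1*. A weaker one at chr4:137853685-137853803 had 3.88 and 4.09, and the downstream one at chr4:137711374-137711514, inside *Rap1gap*, had 4.89 and 2.64, the lowest fold in replicate 2 of the 45 regions.

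*Ank*, a membrane protein that exports pyrophosphate or its precursor, had 7 and 15 peaks and 2 shared regions, both upstream with *Ank* as the nearest coding gene, at 42.6 kb (folds 6.68 and 4.66) and 32.7 kb (4.08 and 4.15). *Enpp1*, which makes pyrophosphate, had 6 and 7 peaks and 2 shared regions, with folds of 5.74 and 7.14 at 25.5 kb and of 4.97 and 6.57 at 64.5 kb. Both of these lay nearer to *Ccn2* than to *Enpp1*. *Phospho1*, a phosphatase of matrix vesicles, had 2 and 7 peaks and 1 shared region 15.2 kb upstream, with folds of 4.95 and 5.13. *Ifitm5*, a membrane protein of osteoblasts, had 2 peaks in replicate 1 and 10 in replicate 2 that did not meet.

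All 4 matrix metalloproteinases, enzymes that cut collagen and other matrix, had a shared region. Most genes do: 60.3% of all coding genes had one, and 61.6% on average of genes of like length. *Mmp13* and *Mmp14*, with 1 each, ranked at 51.5 and 51.6 among genes of like length. *Mmp2* alone among them had shared regions inside the gene. The first, at chr8:92831544-92831702, had folds of 5.97 and 5.11, −log10 q of 4.36 and 4.46, 8 and 12 fragments, and summits 1 bp apart. The second, at chr8:92851145-92851573, had folds of 4.54 and 6.09 and −log10 q of 2.42 and 7.36. *Mmp13*, the collagenase of hypertrophic cartilage and osteoblasts, had 2 peaks in replicate 1 and 1 in replicate 2, and was the only member with fewer in replicate 2. Its shared region at chr9:7238699-7239011 was 33.5 kb upstream, with folds of 6.88 and 5.49, −log10 q of 5.81 and 4.72, and 9 and 11 fragments, and *Dcun1d5* was nearer at 17.8 kb. *Mmp9*, the gelatinase of osteoclasts, had shared regions at 8.31 kb (folds 4.47 and 4.64) and 73.6 kb (4.31 and 4.63). *Mmp14*, which sits in the cell membrane, had 1 at 80.7 kb with 5.67 and 3.88.

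*Sp7*, osterix, the transcription factor without which osteoblasts do not form, had 9 peaks in replicate 1 and 11 in replicate 2, with 4 shared regions. The strongest, at chr15:102367498-102367832, began 0.463 kb beyond the higher-numbered end of the gene. It had folds of 7.87 and 4.77, −log10 q of 7.70 and 4.04, and 12 fragments in each replicate. A region 6.59 kb from the same end had folds of 3.79 and 5.71, and those at 50.2 kb (4.59 and 3.35) and 28.2 kb (4.33 and 3.81) lay inside *Espl1* and nearer to *Sp1*, respectively. *Atf4*, a stress-response factor that osteoblasts need for matrix synthesis, had 7 and 19 peaks, the most of any member in replicate 2, but its 2 shared regions were weak, with folds of 3.98 and 4.64 at 81.9 kb and of 3.96 and 3.68 at 15.9 kb.

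Of the 9 signals and receptors, 6 had a shared region, or 66.7%, near the 60.3% of all coding genes. *Vdr*, the vitamin D receptor, had only 2 peaks in replicate 1 against 16 in replicate 2, and its shared region lay inside the gene at chr15:97864818-97865127, 43.3 kb past the start site. That region had folds of 7.15 and 6.50, −log10 q of 6.69 and 7.63, and 12 and 16 fragments, with 92.4% of all shared regions lower in the weaker replicate. *Pth1r*, the receptor for parathyroid hormone and its relative, had 6 and 18 peaks and 2 shared regions 46.3 kb (4.24 and 3.42) and 47.6 kb (6.09 and 5.85) upstream, close to *Prss42*.

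*Pthlh*, which encodes the parathyroid hormone-related protein that binds that receptor, had 2 peaks in replicate 1, both of them met, and 6 in replicate 2. Its strongest region, at chr6:147151933-147152244, had the highest replicate 1 fold at any member, 10.3, beside 7.22 in replicate 2, with −log10 q of 13.6 and 10.6 and 19 and 21 fragments. It lay 99.9 kb from *Pthlh*, at the very edge of the window, and 39.2 kb from *Klhl42*. A second region at 62.8 kb, for which *Pthlh* was the nearest coding gene, had folds of 5.05 and 5.71.

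*Ihh*, Indian hedgehog, which controls cartilage growth and the bone collar around it, had 4 and 7 peaks and 3 shared regions, all upstream. The first, at chr1:74966627-74966903, was 15.0 kb away with folds of 4.98 and 3.85, the next, at chr1:74972676-74972820, was 21 kb away with 3.89 and 4.94, and the last, at chr1:75041963-75042202, was 90.3 kb away with 5.59 and 4.76. All 3 lay inside or next to *Nhej1*. *Tnfsf11*, which encodes RANKL, the signal that makes osteoclasts, had 1 shared region 10 kb downstream with folds of 4.82 and 8.45 and 6 and 19 fragments, the highest replicate 2 fold at these genes. Its receptor *Tnfrsf11a* had no replicate 1 peak and 8 in replicate 2, and its decoy receptor *Tnfrsf11b* had none and 1. *Sost*, sclerostin, an inhibitor of bone formation, had 1 shared region at 75.9 kb in which the replicate peaks met by 2 bp. *Ostn*, osteocrin, had no peak in either replicate.

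The enamel genes *Ambn* and *Enam*, which lie side by side, had no shared region. *Ambn* had 2 peaks in each replicate, and *Enam* had 1 in replicate 1, inside the gene (fold 5.05), and 4 in replicate 2. The replicate 2 peaks at chr5:88396294-88396460 (fold 7.14, −log10 q 7.84) and chr5:88397996-88398232 (5.67, 4.97) had no replicate 1 peak on them.

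Against genes of like length the role groups spread widely. The rank of a gene is the percent of coding genes with 80% to 125% of its length that had fewer shared regions, with ties given a weight of 0.5. Over the 34 genes the median rank was 57.6, from 17.1 to 94.1, with 24 genes above 50 and 10 below. The 8 genes without a shared region ranked at 27.9 or lower, and the 9 with 1 ranked from 48.2 to 53.8, close to 50. The share of all coding genes that rank above 50 was not counted, so the 24 have no background. The group median was 93.9 for the SIBLING genes, whose regions are partly the same ones, 85.8 for the 2 regulators, 62.8 for the proteases, 61.5 for mineral enzymes and transport, 52.9 for the other matrix proteins, 50.3 for signals and receptors and 18.9 for the enamel genes. Against autosomal genes only, the median over the 34 genes was 55.8. Without the SIBLING locus the median over the rest was 52.9. Over the 34 genes it was 45.6 when the peaks of replicate 2 were counted alone and 58.3 with those of replicate 1 alone. The side of 50 on which the median lay was thus not the same in both. With a fold or −log10 q of at least 5 demanded of every peak, the median member had 0 shared regions and its rank, 37.3 or 43.1, is set by ties with other genes at 0.

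**Figure D3:**
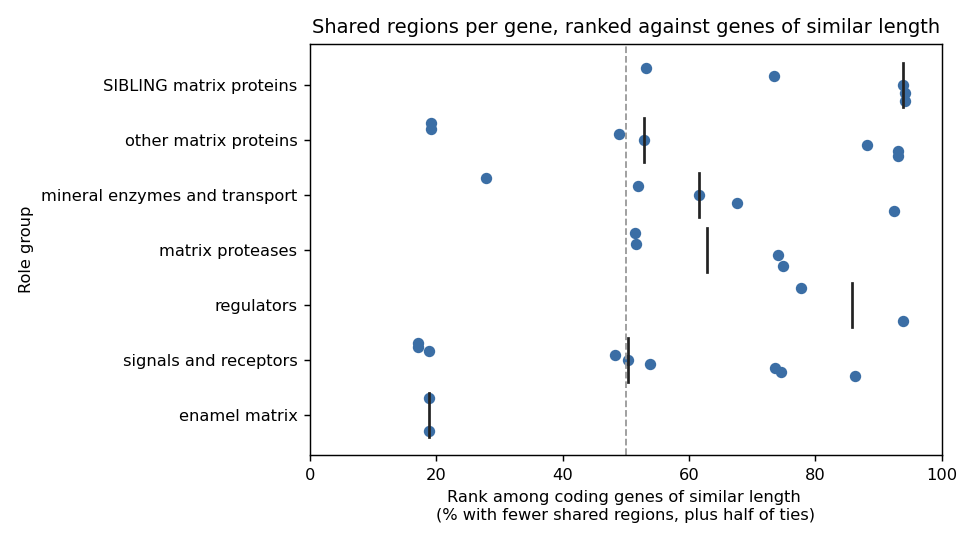
Rank of each gene (points) among coding genes of similar length by its number of shared regions (x axis, percent with fewer, ties at a weight of 0.5), by role group (y axis), with black bars at the group medians and the dashed line at 50. Group medians run from 18.9 for the enamel genes to 93.9 for the SIBLING genes.

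In all, 45 distinct shared regions lay in the windows, out of 10883 in the genome. The windows covered 6.445 Mb, and each Mb held 6.98 shared regions, 17.2 peaks of replicate 1 and 38.6 of replicate 2. The windows of autosomal coding genes held 5.26, 13.7 and 30.3 per Mb. All 3 densities were thus higher around the members, while the share of peaks that met was close to that elsewhere. Of the 111 replicate 1 peaks 45 were met, or 40.5% (31.9 to 49.8), and of the 249 replicate 2 peaks 44, or 17.7% (13.4 to 22.9).

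In strength the shared regions at the members were close to or a little below the rest. Their median fold was 4.97 in replicate 1 and 4.76 in replicate 2, beside 5.05 and 5.12 over all shared regions. The median −log10 q was 3.03 and 4.04, beside 3.03 and 4.25. The fold was higher in replicate 1 at 23 regions and in replicate 2 at 22. A fold of at least 5 in both was reached by 14 regions and a −log10 q of at least 5 in both by 4, those whose nearest members were *Mepe*, *Vdr*, *Dspp* and *Pthlh*. By −log10 q in the weaker replicate, 82.2% of all shared regions were below the 4.72 of the *Mmp13* region. Below the 6.69 of the *Vdr* region were 92.4%. The shares of all shared regions that reached 5 in both replicates, by fold or by −log10 q, were not counted. The 14 therefore have no background, and for the 4 only the bounds just given, at 4.72 and 6.69, are known.

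**Figure D4:**
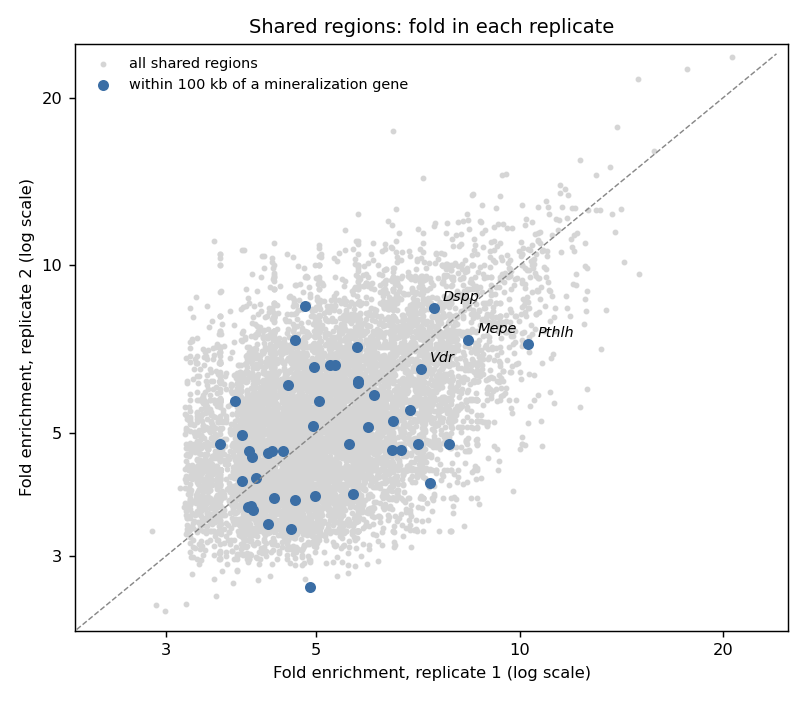
Fold enrichment over local background of each shared region in replicate 1 (x axis, log scale) and replicate 2 (y axis, log scale), for all 10883 shared regions (grey) and the 45 within 100 kb of the mineralization genes (blue), with the diagonal dashed. The blue points lie within the grey cloud, from 3.60 to 10.3 in replicate 1 and from 2.64 to 8.45 in replicate 2, and named points have a −log10 q of at least 5 in both.

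Most of these regions lay outside the genes, in windows whose flanks reach 100 kb on each side. The window sets much of this spread, and distances at other coding genes were not counted. Only 7 were inside a member, 5 were outside it within 10 kb, 19 at 10 to 50 kb and 14 farther, with a median of 39.1 kb for the 38 outside. A member was the nearest coding gene for 19 of the 45, and another gene was nearer for 26. Counting each region only for its nearest coding gene left 14 members with one, or 41.2%, beside 24.4% of all coding genes under the same rule. Relative to listed start sites 14 lay upstream, 15 downstream and 5 inside, and for 11 the side is not listed. The plot of distance against strength shows both near and far regions among the 4 with the highest −log10 q.

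**Figure D5:**
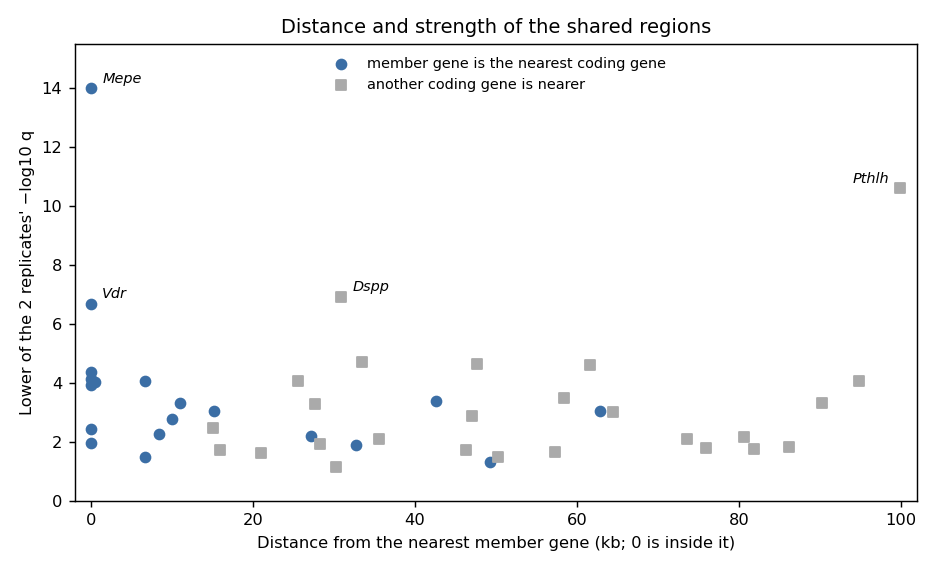
Distance of each of the 45 shared regions from the nearest member (x axis, kb, 0 is inside it) and the lower of its −log10 q values in the replicates (y axis), with blue circles where the member is the nearest coding gene and grey squares where another gene is nearer. *Mepe* (14.0) and *Vdr* (6.69) are inside the genes, *Dspp* (6.93) is 30.9 kb away and *Pthlh* (10.6) 99.9 kb away.

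At the listed promoters themselves, from 250 bases before a start site to 50 after it, little was found. RefSeq gave 32 promoters for 26 of the members. None met a replicate 1 peak or a shared region, and 2, those of *Ibsp* and *Sost*, met a replicate 2 peak, which is 6.25% beside 2.9% of 21247 promoters of all coding genes. By letters, TAATTA was in 9.38% of the members' promoters (*Mepe*, *Pth1r* and *Spp1*) and in 4.53% of all. TAATTG was in 15.6% (*Ambn*, *Bglap*, *Ibsp*, *Mmp14* and *Postn*) and in 6.81% of all. TGTGGT was in 28.1%, 9 promoters in all, and in 14.9% of all coding promoters. Both strands were searched and no sites overlapped. These shares come from few promoters and were not tested.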

How the data were processed

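The lists of DLX2 CUT&Tag peaks, which the authors called on mm10 separately in each wildtype E12.5 replicate, were used. The labels' processing notes name Trim Galore 0.4.5, Bowtie 1.1.2 and MACS2 2.2.7, whereas the methods of the study name bowtie2 and another Trim Galore version, and the labels describe sonicated nuclei where the methods describe transposase tagging. The call settings are not given in the sources used here. The study describes peak sets of other sizes than these lists, so the shared regions counted here are not the study's set of common peaks. Per the file values, the deposited score of each peak is made from its −log10 q. The authors' fold is a ratio to the local background within a library. The deposited −log10 p and −log10 q are the peak caller's own, and the deposited summit offsets, in bases, were used to compare summits.

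The peak lists give no read totals. Fragments at each summit and the background were recovered from fold and −log10 p, assuming (fragments + 1)/(background + 1) and a Poisson upper tail, and were whole for 100% of peaks within 0.001. They are an inference from the authors' values. The median was 6 fragments in replicate 1 and 9 in replicate 2 near the members, so most single peaks are imprecise.

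A shared region is the stretch with at least 1 bp covered by a peak of each replicate. Gene extents and promoters came from RefSeq for GRCm38.p6, and 126 coding genes listed before position 3000000 were left out. Where no start site was listed, either gene end was used. Intervals of shares are 95% Wilson intervals for counting error alone. No test was made, since there is 1 group. Members and lists were chosen with earlier results of these data known. The fullest values were planned for members with a shared region inside them or within 2 kb, and for the 6 with most shared regions with ties kept. They were also planned for *Sp7*, *Ibsp*, *Bglap*, *Alpl* and *Mmp13*, which the study's introduction discusses around DLX2 in bone or cartilage. Positions or −log10 q were not printed for every shared region of these members. Values of other members that are printed in full were picked after they were seen. Alternatives were a −log10 q or fold of at least 5, windows of 50 and 200 kb, 50% reciprocal overlap, each replicate alone, the nearest coding gene only and lengths of 0.5 to 2 times. Autosomal comparison genes, the list without the SIBLING locus, and listed start sites alone, were added after seeing the data. Sequence under peaks was not analysed here. On simulated data, 200 of 200 planted shared regions and 1951 of 1951 fragment numbers were recovered, and window counts equalled those of bedtools 2.31.1 for 21757 of 21757 genes. Scripts ran in Python 3.11.15 with pandas 2.3.3 and numpy 2.4.6, intervals came from statsmodels 0.14.6, Poisson tails from scipy 1.17.1 and plots from matplotlib 3.10.9.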

Additional observations from a re-analysis of the deposited data

How the results depend on the processing

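Of 64 alternative values, 26 stayed within 1.5 times the reported count or within the interval or spread of the reported value, and 38 moved further. Stricter peaks did most, by their construction. With a −log10 q of at least 5 there remained 13 peaks of replicate 1 and 22 of replicate 2, 4 shared regions, 6 members with one (17.6%, beside 14.9% of coding genes), a median of 0 per member, 2 members with one inside and 0 near a start site, and 30.8% of replicate 1 peaks were met. With a fold of at least 5 the values were 35 and 34 peaks, 14 shared regions, 14 members (41.2%, beside 28.6%), a median of 0, 1 member near a start site and 41.2% of replicate 2 peaks met. The median rank was 37.3 there, where ties at 0 set it, and lay between 43.1 and 67.2 otherwise. A window of 50 kb held 72 and 143 peaks, with a shared region at 58.8% of members beside 44.7%. A window of 200 kb held 201 and 443 peaks and 74 shared regions, with a median of 3 per member, and 79.4% of members had one beside 75.4%, a smaller gap than at 100 kb. Demanding 50% of each peak in common left 27 shared regions, at 52.9% of members beside 44.9%, and 24.3% of replicate 1 and 10.8% of replicate 2 peaks met. Counting a region only for its nearest coding gene left 19 regions, 14 members (41.2%, beside 24.4% of coding genes) and a median of 0. With listed start sites only, 1 member had a shared region near one. Without the SIBLING locus 3 members had a shared region inside them.

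With 1 replicate alone there is no shared region, and every peak of that replicate was counted: 111 to 249 regions, 29 to 32 members, a median of 4 to 8 per member, 11 to 16 members with one inside, 5 to 10 near a start site, and a median rank of 45.6 to 58.3. No paired analysis was possible because there is 1 group. A median peak rests on 6 or 9 fragments, the part of depth in these counts was not tested, and a gene without a shared region is not shown to lack DLX2. No control library was used here, so background cutting was not measured, and peaks over repeated sequence were not marked. Neighbouring genes share regions and are not independent. Assigning a distant region to a gene rests on distance alone.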

Other observations

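Among 25 other genes of matrix, mineral and tooth biology that are not on the list, 17 had a shared region within 100 kb, which is 68% beside 60.3% of all coding genes and 65.7% of genes of like length, with a median of 1 and at most 3, at *Slc20a2*, a phosphate transporter, and *Dlx3*, a homeobox gene of tooth and hair. A shared region lay inside 5 of them, or 20%, beside 14.6% of coding genes of any length. Neither count thus stands far from the background given. These genes are not fully separate from the members. *Bglap3* lies beside *Bglap* and *Bglap2* and counts the same 2 shared regions, and *Amtn*, which had none, lies within 100 kb of *Ambn*. *Mmp20*, the protease of enamel matrix, had 2 shared regions, both inside it, and was the only one of the 25 with a shared region within 2 kb of its start site. *Slc24a4*, an ion exchanger of enamel cells, also had 2 inside it. *Runx2*, the regulator that acts before *Sp7*, had 6 peaks in replicate 1 and 23 in replicate 2, with 2 shared regions, 1 of them inside the gene. *Col1a1* had 4 and 12 peaks and 1 shared region, and *Col1a2*, for the other chain of type I collagen, had 0 and 2 peaks and no shared region. *Amelx*, amelogenin, and *Odam* had no peak in either replicate.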
